A study of Mus musculus with 6 samples.

Results

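The 10 genes described here encode transcription factors and transcriptional co-regulators that act in embryonic patterning, growth control or immune cell development: *Dlx5*, *Dlx6*, *Foxp2*, *Foxe1*, *Plag1*, *Tox*, *Nr4a3*, *Bach2*, *Runx1t1* and *Crem*. They were chosen by name and by position, 10 of the 55359 gene rows in the deposited table. UN-SCC679 and UN-SCC680 are adherent lung squamous cell carcinoma lines, each grown from a tumor of a different A/J mouse painted with the carcinogen N-nitroso-tris-chloroethylurea (NTCU). Both were passaged in culture, then through immunodeficient and A/J mice, and both grew in the same medium without further treatment, so the lines differ by tumor of origin and not by an agent. Polyadenylated RNA was sequenced in 3 libraries of each line, with 3568293 to 4381885 counts per library. Each line stands for 1 tumor, and nothing says that the 3 libraries came from separate cultures, so the p-values measure only the spread between these libraries.

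A row was read as its gene only where the positions in the table and those of the mouse build GRCm38 agree, which is before 58.6 Mb on chromosome 4, 29.5 Mb on chromosome 6 and 5.8 Mb on chromosome 18. These windows hold 1191 rows, and all 10 factors lie within them. Of the 355 protein-coding window rows that could be placed by symbol in RefSeq genes of GRCm38.p6, 347 began or ended within 1000 bases of the RefSeq gene, against 193 of 17308 in the rest of the table. The start of *Runx1t1* was 808 bases and its end 1407 bases from RefSeq, the largest distance of the nearer end among the 10 factors. *Tox* was at distance 0 at both ends. Coordinates below are those of the table.

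Transcription factors bind short DNA sequences and switch genes on or off, and those of development are usually active in few tissues and silent in the rest. The Dlx homeobox factors pattern the limbs, jaws and forebrain, and the forkhead factors Foxp2 and Foxe1 act in the developing brain and lung and in the thyroid and palate. Plag1 is a zinc finger activator of growth genes, first known from salivary gland tumors. Tox, an HMG-box protein, and Bach2, a basic leucine zipper repressor, are best known from T and B lymphocytes. Nr4a3 is an orphan nuclear receptor made within minutes of many stimuli, and Crem is a nuclear target of cyclic AMP signaling that can activate or repress through the cyclic AMP response element. Runx1t1, also called ETO, is a co-repressor of the nervous system and fat tissue.

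The cyclic AMP response element is read by Crem and its relatives, and its core TGACG, or CGTCA on the other strand, was searched on both strands in the promoters that RefSeq gives for these genes. A promoter was matched for 2 of the 10 factors, *Nr4a3* and *Bach2*. The sequences are shown because both genes had counts in both lines and because *Nr4a3* is a gene of the stimulus response. Both are of GRCm38.p6, on the plus strand, with the core in capitals. For *Nr4a3* the sequence is chr4:48045055-48045152 and ends 1 base before the first exon of the table. It is the first 98 of the 250 bases before a start site that lies 152 bases inside the table's gene. The other 152 bases are in the table's exons and are not shown. The RefSeq gene starts at 48045078, so the sequence in part lies inside it. For *Bach2* it is chr4:32417185-32417434, the bases before a start site that lies 178631 bases inside the table's gene, outside its exons.
Nr4a3: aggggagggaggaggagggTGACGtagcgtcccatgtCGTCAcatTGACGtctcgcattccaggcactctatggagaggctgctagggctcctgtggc
Bach2: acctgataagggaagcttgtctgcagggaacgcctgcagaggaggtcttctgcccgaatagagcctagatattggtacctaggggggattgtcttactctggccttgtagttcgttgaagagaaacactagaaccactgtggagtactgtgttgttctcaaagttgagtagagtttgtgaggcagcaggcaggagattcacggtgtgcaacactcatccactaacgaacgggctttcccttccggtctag

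The *Nr4a3* sequence holds the core 3 times, at bases 20, 38 and 46 from its first base, and the full 250 bases hold it 4 times. In the same first 98 bases of all 32851 promoters, 5.22% hold the core at least 1 time and 0.0274% hold it 3 times or more, overlapping matches included. The core contains a C followed by G, a pair found 5 times in the *Nr4a3* sequence, beside a median of 2 over the promoters. The shares are not adjusted for this. The *Bach2* sequence holds none, and 17.8% of promoters hold at least 1 in the same 250 bases. These are matches of letters, and no binding was measured here.

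The 10 factors were split by a limit on counts. Some were off in both lines, some in UN-SCC680 only, with few counts in UN-SCC679, and some in neither line. A gene was called off in a line at 3 counts or fewer in every library of it. By this limit *Dlx5*, *Foxe1*, *Foxp2* and *Tox* were off in both lines, 4 of 10. *Dlx6* and *Runx1t1* were off in UN-SCC680 only. Of all 355 protein-coding window rows, 32.1% were off in both lines, and of the 14 other transcription factors listed for these windows 4 were, or 28.6%.

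**Figure D1:**
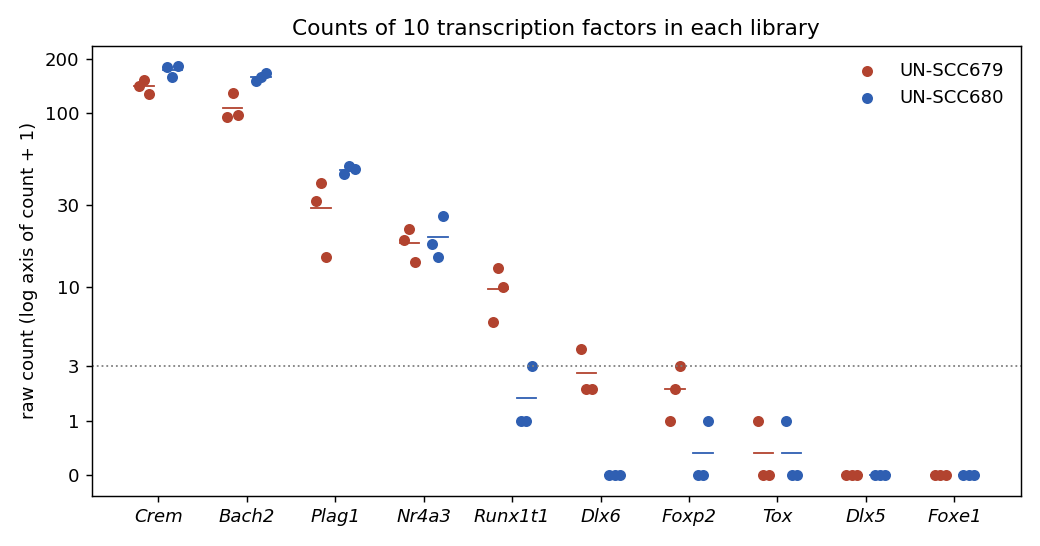
Raw counts of the 10 factors in each library (y axis, log axis of count + 1), 3 points per line with a bar at the mean, and a dotted line at the limit of 3 counts. *Crem*, *Bach2*, *Plag1* and *Nr4a3* lie above the limit in all 6 libraries, and *Dlx5* and *Foxe1* lie at 0.

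*Dlx5* (ENSMUSG00000029755.11, chromosome 6, 6877805 to 6882085) had 0 counts in each of the 6 libraries. *Foxe1* (ENSMUSG00000070990.3, chromosome 4, 46343609 to 46346412), a regulator of thyroid and palate formation, likewise had 0 counts in each. Over the 3 libraries of a line, a count of 0 allows up to 0.258 CPM (counts in 1000000 of the library) for UN-SCC679 and 0.232 CPM for UN-SCC680, with counting error alone considered. A row on the opposite strand of *Foxe1*, *Gm12446*, held 2 counts over the UN-SCC679 libraries and 0 over the others.

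*Foxp2* (ENSMUSG00000029563.17, chromosome 6, 14901348 to 15441976) had 1, 2 and 3 counts in the UN-SCC679 libraries and 0, 0 and 1 in those of UN-SCC680. *Tox* (ENSMUSG00000041272.12, chromosome 4, 6686353 to 6991557) had 1, 0 and 0 counts in the UN-SCC679 libraries and 1, 0 and 0 in those of UN-SCC680. At these counts no fold between the lines is given. In normalized CPM the *Foxp2* values of UN-SCC679 were all above those of UN-SCC680, but the nearest libraries, at 0.269 and 0.236 CPM, each held 1 count. The *Tox* counts overlapped.

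*Dlx6* (ENSMUSG00000029754.14, chromosome 6, 6863334 to 6868568), the homeobox neighbor and partner of *Dlx5*, had 4, 2 and 2 counts in UN-SCC679 and 0 in every UN-SCC680 library. All UN-SCC679 libraries were above those of UN-SCC680, by 2 to 4 counts. The antisense transcript *Dlx6os1* (ENSMUSG00000090063.7) overlaps it on the opposite strand, with 3, 3 and 5 counts in the UN-SCC679 libraries and 2, 1 and 0 in those of UN-SCC680, and the strand setting of the counting is not given in the sources used here.

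*Runx1t1* (ENSMUSG00000006586.16, chromosome 4, 13743436 to 13893649) had 6, 13 and 10 counts in the UN-SCC679 libraries and 1, 1 and 3 in those of UN-SCC680. All UN-SCC679 libraries were above all UN-SCC680 libraries. The totals of 29 and 5 counts gave a ratio of 6.45 by library size, with an exact 95% counting interval of 2.47 to 21.3. An exact two-sided permutation test of the normalized CPM gave p = 0.1, the smallest that 3 libraries against 3 allow. The filter on low counts left *Runx1t1* out of the test across rows. Without the filter, edgeR's quasi-likelihood test gave a log2 difference of -2.54 ± 0.59 (standard error) with an adjusted p of 0.000118, short of the threshold of 5e-05 used below, which 13.8% of the 22176 rows in that fit and 31.3% of its 664 window rows passed. In the same unfiltered fit, *Dlx6* had an adjusted p of 0.0163 and *Foxp2* one of 0.231 from edgeR. An adjusted p under 0.05, as *Runx1t1* and *Dlx6* had, was reached by 25.7% of all rows in that fit and by 42.0% of its window rows.

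The other 4 factors had at least 14 counts in each library and passed the filter. The lines were compared by a quasi-likelihood test of edgeR on all 8987 rows that passed, with Benjamini-Hochberg adjustment and a threshold of 5e-05. The study used this adjusted p with DESeq2 for each line against normal lung basal cells, and its plot also had a limit on fold change. At this threshold 0 of the 4 differed between the lines, where 30.4% of all tested rows and 52.4% of the 357 tested window rows did. DESeq2 and limma-voom also called 0 of them. All 4 had under 200 counts in every library, where few small real changes reach this threshold. In simulated data, all rows had the same relative spread beyond counting error, not that of each factor. There, rows with a mean under 200 counts were called in 6 of 43 cases at a true 1.5-fold change. At a true 2-fold change 23 of 41 were called, and at a true 4-fold change 43 of 46. The count of 0 therefore does not show that the 4 factors are alike in the lines. At an unadjusted p under 0.05, *Bach2* and *Plag1* passed, 2 of 4, where 62.3% of all tested rows and 77.3% of the tested window rows did. Both also had an adjusted p under 0.05, which 58.4% of all tested rows and 74.5% of the window rows had, and neither did when scaled within the window rows. These 2 were also the tested factors whose lines did not overlap in normalized CPM, as in 62.2% of all tested rows and 76.2% of the window rows. The median log2 fold change (UN-SCC680 minus UN-SCC679) of the 4 was 0.31, that of the tested window rows 0.23 and that of all tested rows -0.0028. Scaled over all tested rows, the windows as a whole thus lay higher in UN-SCC680. Scaling within the window rows alone moved log2 fold changes by a median of -0.24.

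*Bach2* (ENSMUSG00000040270.17, chromosome 4, 32238804 to 32586108), the lymphocyte repressor, had 95, 128 and 97 counts in the UN-SCC679 libraries and 151, 158 and 167 in those of UN-SCC680. Its normalized CPM was 27.3 ± 1.77 for UN-SCC679 and 37.3 ± 1.87 for UN-SCC680 (SD, n = 3 each). The lowest UN-SCC680 library, at 35.9 CPM, was above the highest UN-SCC679 library, at 29.1 CPM. The log2 fold change was 0.45 (95% interval 0.23 to 0.66, edgeR adjusted p = 0.000393), 1.36-fold, which does not pass the threshold. Scaled and tested within the window rows alone, it was 0.21 with an adjusted p of 0.0908 from edgeR. Of 3 rows that overlap *Bach2*, that with most counts, *BC024582* on the opposite strand, had 1 to 5 in a library.

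*Plag1* (ENSMUSG00000003282.10, chromosome 4, 3900996 to 3938423), whose product is known to activate the growth factor gene *Igf2*, had 32, 40 and 15 counts in the UN-SCC679 libraries and 45, 50 and 48 in those of UN-SCC680. Its normalized CPM was 7.30 ± 2.70 and 11.2 ± 0.447 (SD, n = 3 each). Replicate 3 of UN-SCC679, at 4.19 CPM, was low beside 8.61 and 9.10 CPM in the other libraries of that line, and all UN-SCC680 libraries were above all of UN-SCC679. The log2 fold change was 0.59 (95% interval 0.17 to 1.01, edgeR adjusted p = 0.0140) and did not pass. Scaled and tested within the window rows alone, it was 0.35 with an adjusted p of 0.149 from edgeR, and DESeq2 gave an adjusted p of 0.0846. Without replicate 3 of UN-SCC679 it was 0.34 with an adjusted p of 0.166, so its size rests on that library.

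*Crem* (ENSMUSG00000063889.17, chromosome 18, 3266048 to 3337748), the cyclic AMP response modulator, had the most counts of the 10, with 141, 152 and 127 in the UN-SCC679 libraries and 180, 158 and 181 in those of UN-SCC680. Its normalized CPM was 36.0 ± 1.74 and 40.7 ± 3.59 (SD, n = 3 each), and the lines overlapped. The log2 fold change was 0.18 (95% interval -0.024 to 0.38, edgeR adjusted p = 0.124) and turned to -0.060 when scaled within the window rows. The row sums all exons, so activating and repressing isoforms of *Crem* are not told apart. An unnamed row on the opposite strand, which overlaps its start, had 6 to 15 counts in a library.

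*Nr4a3* (ENSMUSG00000028341.10, chromosome 4, 48045153 to 48086447), the stimulus-induced receptor whose promoter is shown above, had 19, 22 and 14 counts in the UN-SCC679 libraries and 18, 15 and 26 in those of UN-SCC680. Its normalized CPM was 4.68 ± 0.662 and 4.63 ± 1.37 (SD, n = 3 each), with both the lowest and the highest value in UN-SCC680. The log2 fold change was -0.024 (95% interval -0.59 to 0.54, edgeR adjusted p = 0.95). The interval spans 0.667-fold to 1.45-fold, so differences within that range are not excluded.

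**Figure D2:**
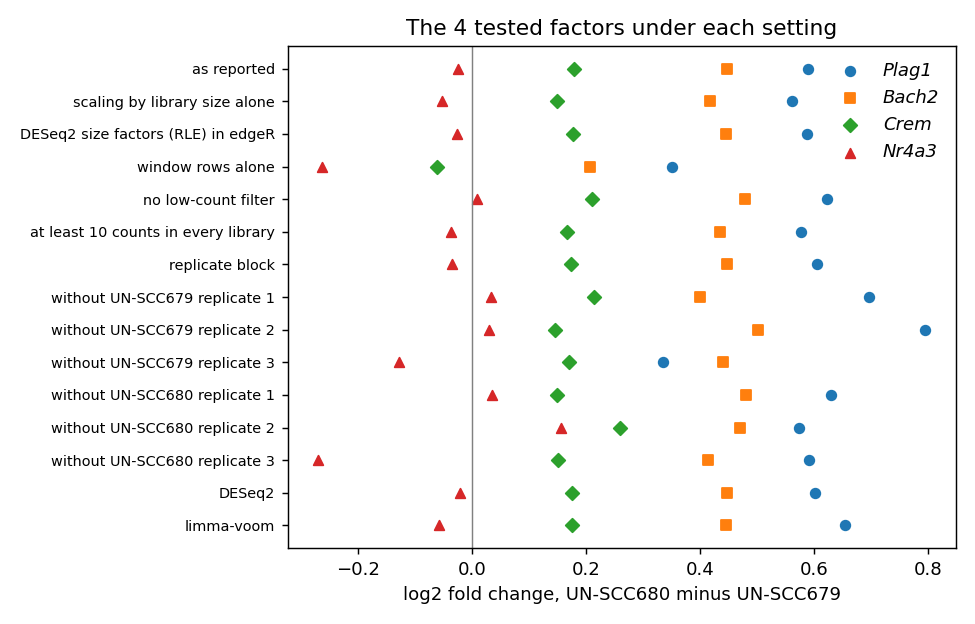
Log2 fold change of the 4 tested factors (x axis, UN-SCC680 minus UN-SCC679) as reported and under each other setting or with 1 library left out (y axis). *Bach2* and *Plag1* stay above 0 throughout, *Crem* falls to -0.060 and *Nr4a3* to -0.26 when the window rows alone are used.

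Per exon length, in normalized CPM per kilobase, the order of the levels in UN-SCC679 was *Crem* (6.11 ± 0.296), *Bach2* (2.74 ± 0.179), *Plag1* (0.860 ± 0.318), *Nr4a3* (0.781 ± 0.111), *Runx1t1* (0.309 ± 0.0921), *Dlx6* (0.293 ± 0.140), *Foxp2* (0.0319 ± 0.0178) and *Tox* (0.0118 ± 0.0204) (SD, n = 3 each), with *Dlx5* and *Foxe1* at 0. *Plag1* and *Nr4a3* overlapped there, as did *Runx1t1* and *Dlx6*, and *Foxp2* and *Tox*. In UN-SCC680 the order began with *Crem* at 6.91 ± 0.610, *Bach2* at 3.75 ± 0.188, *Plag1* at 1.32 ± 0.0526 and *Nr4a3* at 0.774 ± 0.229 normalized CPM per kilobase, and none of these 4 overlapped its neighbor in the order. *Runx1t1* followed at 0.0493 ± 0.0344, and *Tox* and *Foxp2*, with 1 count each over the line, and *Dlx6*, *Dlx5* and *Foxe1*, at 0, came last. In the mean of all libraries, *Crem* was above 49.0% of the protein-coding window rows and *Bach2* above 47.0%. *Plag1* and *Nr4a3* were above 42.5% and 41.1%, so even the most abundant of the 10 factors lay below the median gene of these windows.

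**Figure D3:**
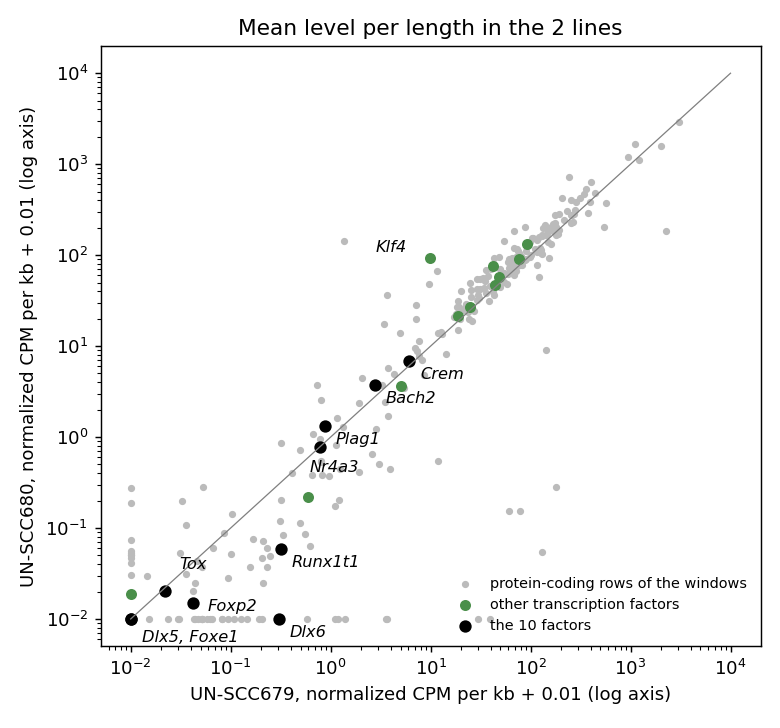
Mean normalized CPM per kilobase + 0.01 in UN-SCC679 (x axis) and UN-SCC680 (y axis), both on log axes, for the 355 protein-coding rows of the windows (gray), 14 other transcription factors (green) and the 10 factors (black), with a line of equal levels. *Crem*, *Bach2*, *Plag1* and *Nr4a3* lie near the line, and *Runx1t1* and *Dlx6* lie below it.

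Other transcription factors on the same stretches of chromosome show the levels that were readable there. Of a list of 17, 14 lay in the windows and 3 symbols (*Pou3f2*, *Tfec* and *Zfp483*) were not matched to a row. Of the 14, 9 were tested. *Klf4*, *Zfp292*, *Nfx1* and *Zfp462* were higher in UN-SCC680, 4 of 9, and 0 were lower. Of the tested window rows, 37.5% were higher and 14.8% lower, and of all tested rows 15.3% and 15.2%. The median log2 fold change of the 9 was 0.24. *Zfp292*, a large zinc finger protein, rose from 425 ± 13.8 to 763 ± 6.97 normalized CPM (SD, n = 3 each), which is 0.85 on the log2 scale (edgeR adjusted p = 5.81e-24). *Klf4*, a regulator of squamous differentiation, had a log2 fold change of 3.26. *Nfx1* had one of 0.50 and *Zfp462* one of 0.24. Scaled within the windows, *Nfx1* was at 0.26 and still called, and *Zfp462* was at 0.0031 and not called. *Creb3*, a membrane-bound relative of the CREB factors, had a log2 fold change of 0.25 with an adjusted p of 5.21e-05 from edgeR, just over the threshold, and was at 0.0083 with an adjusted p of 0.885 when scaled within the windows. *Zfp438*, at -0.47, had the lowest log2 fold change and did not pass (edgeR adjusted p = 0.00464). Within the windows it was at -0.71 and did not pass either. *Pax4*, *Pax5*, *Prdm13* and *Fezf1*, factors of pancreas, B cells and nervous system, had 0 or 1 count in any library.

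Family members, binding partners and known targets of the 10 factors could be read for 4 of 43 genes, and the other 39 lie outside the windows. All 4 were lower in UN-SCC680, as were 14.8% of the tested window rows and 15.2% of all tested rows. *Gem* and *Pdk4* passed the filter only through UN-SCC679, where they were high, so their direction was in part set by the filter. With at least 10 counts required in every library, 2 of the 4 were tested and both were lower. *Gem*, a small GTPase gene induced through cyclic AMP response elements, had 23, 28 and 13 counts in the UN-SCC679 libraries and 4, 5 and 8 in those of UN-SCC680, which is -2.01 on the log2 scale (edgeR adjusted p = 6.09e-06). The call for *Gem* was lost with DESeq2 (adjusted p = 0.000440), with limma-voom (7.63e-05) and without replicate 2 of UN-SCC679 or replicate 1 or 2 of UN-SCC680 (0.000115 to 0.000404), with log2 fold changes of -2.03 to -1.82. *Pdk4*, a mitochondrial kinase gene that Nr4a receptors are known to activate in muscle, had 5302 counts over the UN-SCC679 libraries and 2 over those of UN-SCC680. *Nr4a3* itself had 55 and 59 counts over the same libraries. *Pdk4* (chromosome 6, 5483351 to 5496309) lies before *Slc25a13*, the neighbor of *Dlx6* described below, which starts at 6041218. *Slc25a13* was likewise near 0 in UN-SCC680, with 3491 counts over the UN-SCC679 libraries and 7 over those of UN-SCC680. Whether the low counts of these genes in UN-SCC680 are linked was not tested. *Met*, a receptor kinase gene known as a target of Foxp2, fell by 1.42 on the log2 scale. *Col1a2*, a collagen gene of the bone program in which Dlx5 acts, fell by 3.63. *Dlx5* was at 0 in both lines. Whether any of the 10 factors acts on *Gem*, *Pdk4*, *Met* or *Col1a2* in the lines was not tested.

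The nearest tested protein-coding genes on each side of the 10 factors gave 17 neighbors, since *Dlx5* and *Dlx6* share theirs and no tested gene precedes *Crem* in its window. Of these, 9 were higher and 1 lower in UN-SCC680, beside the 37.5% and 14.8% of tested window rows, with a median log2 fold change of 0.26. Scaled within the window rows, 6 were higher and 4 lower, so the split depends on the rows used for scaling. The 1 lower neighbor, *Slc25a13*, passed the filter only through UN-SCC679, where it was high, so its direction was in part set by the filter. With at least 10 counts required in every library, 16 neighbors were tested, and 8 were higher and 0 lower. The *Dlx5* and *Dlx6* pair lies between *Slc25a13*, a mitochondrial aspartate-glutamate carrier, and *Asns*, the asparagine synthetase. *Slc25a13* is 646161 bases from *Dlx6* and had a mean of 299 normalized CPM for UN-SCC679 and 0.549 for UN-SCC680, while *Asns*, 793084 bases from *Dlx5*, had 668 and 1977. Both homeobox genes were near 0 in UN-SCC679, where both flanking genes had counts. *Plag1* lies 465 bases from *Chchd7*, which starts on the other strand and had a log2 fold change of 0.17 (edgeR adjusted p = 0.118, and -0.071 when scaled within the windows), against 0.59 for *Plag1*. The neighbors of *Bach2* had values close to its own 0.45, with 0.54 for *Map3k7*, a kinase of inflammatory signaling, and 0.41 for *Casp8ap2*. Both passed the threshold (scaled within the windows, *Map3k7* was at 0.30, and *Casp8ap2*, at 0.17, lost it), at 487 to 992 mean CPM against 27.3 to 37.3 for *Bach2*. *Runx1t1*, lower in UN-SCC680, lies between *Tmem67* at 0.068 and *Otud6b* at 0.40, which were at -0.17 and 0.16 when scaled within the windows.

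**Figure D4:**
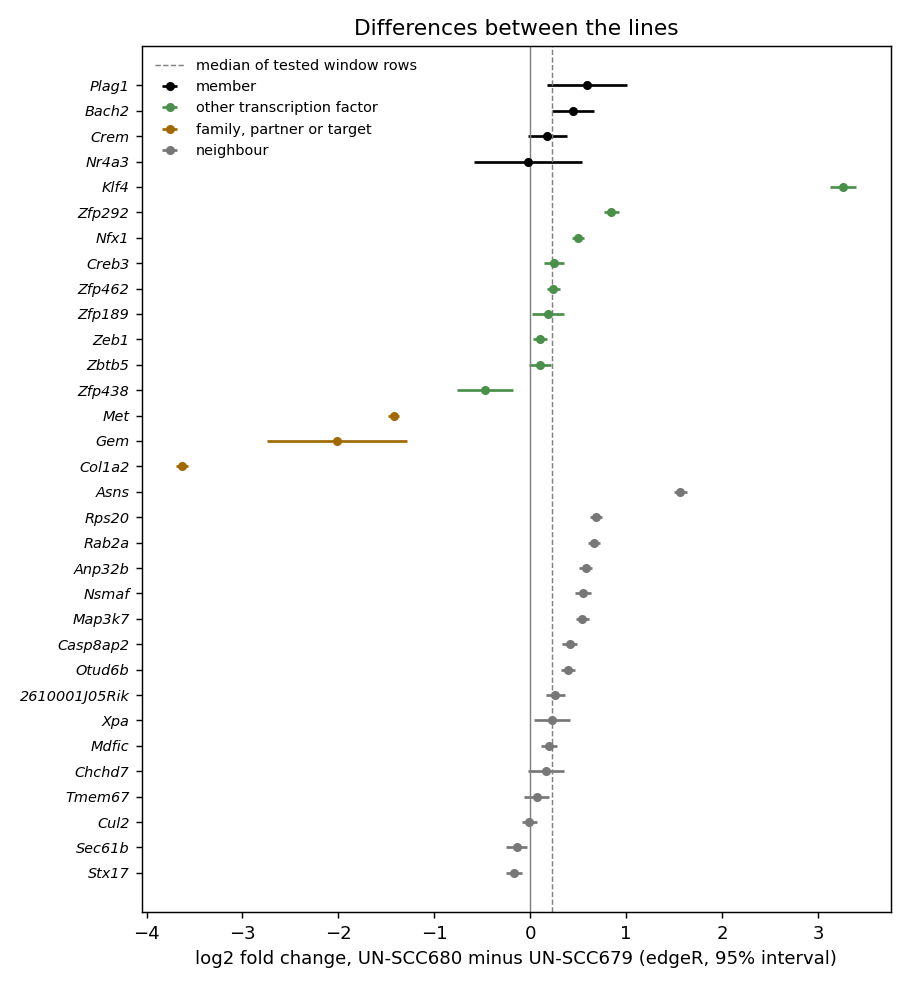
Log2 fold change (x axis, UN-SCC680 minus UN-SCC679, edgeR, bars are 95% intervals) of the tested factors, other transcription factors, partners and targets, and neighbors (y axis, colors by group), with *Pdk4* and *Slc25a13*, at or under 3 counts in UN-SCC680, left out. *Crem* and *Nr4a3* include 0 in their intervals, and the dashed line marks the window median of 0.23.

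The labelled cell type could not be checked, because all 7 squamous and basal markers listed lie outside the windows. Of 27 markers of 6 cell types, 6 were readable. *Esrp1*, of epithelium, had 0 to 2 counts in a library, and *Col1a2*, of fibroblasts, had 9290 to 125364. Of the leukocyte markers, *Lyn* had 60 to 93 counts, *Cd72* 2 to 10 and *Pax5* 0 to 1. *Tac1*, of neurons, had 0. Their part in the levels of the 10 factors was not tested, and in bulk RNA fewer cells with a transcript and less of it per cell cannot be told apart.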

How the data were processed

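Messenger RNA of 3 UN-SCC679 and 3 UN-SCC680 libraries was measured (stranded TruSeq kit, paired-end reads). The deposited values are raw counts for each Ensembl gene, not normalized, beside exon positions and length. The paper's methods name Trimmomatic and Kallisto with mm10, and the submitters' processing notes name featureCounts and mm10. Table positions are those of GRCm38 in the windows used and mostly differ elsewhere. Other rows therefore served only scaling, adjustment and the shares and median given for all rows, and were not read as genes. Columns were matched to libraries by line and replicate number, and 0 were left unused. Symbols were matched to 31021 of 55359 identifiers.

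Rows were filtered with filterByExpr, scaled by TMM and tested with edgeR's quasi-likelihood test (no covariates, Benjamini-Hochberg over 8987 rows, threshold 5e-05), checked on simulated data. Standard errors and 95% intervals were derived from the F statistic. Normalized CPM uses TMM library sizes. Libraries of a line differed by more than sampling noise (chi-square per degree of freedom 1.11 to 1.65). Each was counted as 1 sample, though nothing says that they came from separate cultures. Intervals and limits from counts cover counting error only.

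Named genes were the 10 factors, rows overlapping them, list genes in the windows and nearest tested neighbors. Factors, lists and limits were chosen with earlier results of these data known. The motif was chosen after the data were seen. Alternatives were DESeq2, limma-voom, other scalings, filters, thresholds and limits, the replicate block and leaving out each library. edgeR 4.0.16, DESeq2 1.42.0 and limma 3.58.1 ran in R 4.3.3. Counting intervals used SciPy 1.17.1 in Python 3.11.15, with NumPy 2.4.6 and pandas 2.3.3, and plots matplotlib 3.10.9.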

Additional observations from a re-analysis of the deposited data

How the results depend on the processing

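The count of 0 differing factors was 2 at an adjusted p under 0.05 and 0 under every other alternative. The 4 factors off in both lines became 2 at 0 counts in every library, and 4 to 5 with 1 library left out. The 4 differing other transcription factors became 8 at an adjusted p under 0.05 and 1 when the log2 fold change also had to exceed 1 in size. The 4 partner and target genes became 2 with at least 10 counts in every library, where 2 were tested, and the 10 neighbors became 2 under the same size limit.

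Of 473 values for 34 genes, 433 kept direction and side of the threshold. Scaling within the window rows moved log2 fold changes by a median of -0.24 and turned *Crem* to -0.060, *Zeb1* to -0.14, *Zbtb5* to -0.14, *Zfp189* to -0.054, *Mdfic* to -0.045, *Xpa* to -0.014, *Chchd7* to -0.071 and *Tmem67* to -0.17. Without the filter, *Nr4a3* became 0.0084 and *Cul2* 0.024. With 1 library left out, *Nr4a3* ran from -0.27 to 0.16 and *Cul2* from -0.025 to 0.031. None of these reversed values was past the threshold.

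Same-numbered libraries had deviations correlated at -0.038, -0.00052 and -0.022, which gives no sign of pairing by number. The replicate block left 0 factors, 4 other transcription factors and 4 partner genes called, and 9 neighbors in place of 10.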
